A study of Mus musculus with 15 samples.

Results

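The immediate early genes described here are Fos, Fosb, Fosl2, Jun, Junb, Egr1, Arc, Npas4, Nr4a1 and Ier2. They were chosen by symbol, and all 10 were found among the 26145 genes listed for the mouse prefrontal cortex (PFC). Their levels were read in 15 single-cell RNA-seq libraries of male C57BL/6N mice, each made from the pooled PFC of 2 animals. The 12 adult libraries came from mice of 8 to 10 weeks trained to self-administer cocaine or saline by the intravenous route. Cocaine libraries 1 and 4 and saline libraries 2 and 3 were taken at the end of the maintenance phase. Libraries 5 and 7 (saline) and 6 and 8 (cocaine) were taken after 48 h of withdrawal. Libraries 9 and 10 (cocaine) and 11 and 12 (saline) were taken after 15 days of withdrawal. The other 3 libraries came from mice at postnatal day 21 (P21) that had no self-administration. In the sample labels the tissue field reads nucleus accumbens, whereas titles and methods give the PFC. All tissue was digested with papain for 35 to 40 min, and no blocker of transcription is named in the protocol.

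Immediate early genes are transcribed within minutes of a stimulus, without new protein synthesis, by factors such as CREB, SRF and MEF2 that are already present in the cell. Fos, Fosb, Fosl2, Jun and Junb encode subunits of the dimeric AP-1 transcription factor. Egr1 encodes a zinc-finger factor and Nr4a1 an orphan nuclear receptor. Npas4 encodes a bHLH-PAS factor that is induced mainly by calcium influx in neurons, and Arc encodes a postsynaptic protein that promotes the removal of AMPA receptors. Ier2 encodes a small nuclear protein of the rapid response. In cortex these transcripts are widely read as marks of recent neuronal activity, but most are also induced in glia and vascular cells by injury, cytokines and tissue dissociation.

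In the NCBIM37 build used for alignment, Fos lies at chr12:86814840-86818223 on the plus strand and has 4 exons. Junb (chr8:87500811-87502617) and Ier2 (chr8:87185230-87186751) are both single-exon genes on the minus strand, 314 kb apart with 21 annotated genes between them. Npas4 lies at chr19:4984355-4989971 on the minus strand with 8 exons, Arc at chr15:74499513-74503000 on the minus strand with 3 exons, and Nr4a1 at chr15:101097277-101105223 on the plus strand with 7 exons. Jun, also a single-exon gene, overlaps the transcript BC042782 on the other strand, and Egr1 overlaps Gm17507 on the other strand.

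Promoter sequence was available for 7 of the 10 members. The 250 bases before the start site of 4 of them are shown because they represent the AP-1 (Fos, Junb), neuronal (Npas4) and nuclear receptor (Nr4a1) members whose levels are compared below. They are from RefSeq on GRCm38.p6, given 5′ to 3′ on the strand of the gene. Capitals mark TGACG or its reverse complement CGTCA, the core shared by binding sites of CREB and related factors.
Fos, chr12:85473640-85473889, plus strand: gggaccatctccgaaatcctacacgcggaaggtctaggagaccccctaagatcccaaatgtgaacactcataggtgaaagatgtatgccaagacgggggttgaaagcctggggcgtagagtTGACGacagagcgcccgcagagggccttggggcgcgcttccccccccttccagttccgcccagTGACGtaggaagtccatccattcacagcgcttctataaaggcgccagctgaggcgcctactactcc
Junb, chr8:84978749-84978998, minus strand: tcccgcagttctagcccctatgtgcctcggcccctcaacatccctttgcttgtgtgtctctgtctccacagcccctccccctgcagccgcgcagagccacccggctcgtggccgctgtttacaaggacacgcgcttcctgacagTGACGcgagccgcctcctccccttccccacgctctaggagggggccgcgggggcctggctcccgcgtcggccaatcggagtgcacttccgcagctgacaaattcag
Npas4, chr19:4989972-4990221, minus strand: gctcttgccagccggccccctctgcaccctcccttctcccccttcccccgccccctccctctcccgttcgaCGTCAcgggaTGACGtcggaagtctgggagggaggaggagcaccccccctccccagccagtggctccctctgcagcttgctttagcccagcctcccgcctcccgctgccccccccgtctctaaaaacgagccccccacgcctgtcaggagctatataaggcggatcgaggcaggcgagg
Nr4a1, chr15:101266596-101266845, plus strand: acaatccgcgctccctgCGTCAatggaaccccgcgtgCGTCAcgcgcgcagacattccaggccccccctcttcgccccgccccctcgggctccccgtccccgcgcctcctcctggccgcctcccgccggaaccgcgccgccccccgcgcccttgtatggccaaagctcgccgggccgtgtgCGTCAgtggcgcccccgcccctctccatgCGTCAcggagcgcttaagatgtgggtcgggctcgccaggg

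The 5-base core was present in 5 of the 7 members (Fos, Fosb, Junb, Npas4 and Nr4a1), and in 17.8% of all 32851 promoters of this length. Fos held it 129 and 66 bases before the start, Junb 106 bases before, Npas4 179 and 169 bases before, and Nr4a1 at 4 positions, the nearest 40 bases before. The full palindrome TGACGTCA was in 0 of the 7 windows and in 1.55% of all promoters, and the CArG box bound by SRF was in 0 of the 7 and in 1.47%. The letters TATAAA were found only in Fos among the 7, and in 7.59% of all promoters. A match or its absence describes these letters in this window and not binding.

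The authors' table of cells lists 24822 from adult and 10538 from P21 libraries, of 31791 and 12004 barcodes in the count matrices, and gives each a class and a finer cluster (L2). The P21 number is lower than the total stated in the methods, and the filters behind that total were not repeated here. The UMIs (unique molecular identifiers, 1 per captured transcript) of a class were summed within a library and are given as CPM, the UMIs of a gene per 1000000 UMIs of that sum. A library counted for a class if it held at least 10 of its cells. Retained cells held between 8375172 and 42892922 UMIs per library, with medians of 3426 to 11334.5 UMIs per cell. Pairs of libraries shared at most 27 cell barcodes. Excitatory neurons (Exc) were recognised by all 5 of their markers, summing to between 5458 and 7008 CPM in adult and to between 5080 and 7242 CPM in P21 libraries. Adult library 3 held too few astrocytes, oligodendrocyte precursors and newly formed oligodendrocytes to be used for those classes. The methods name 4 mice for the 3 P21 libraries, so these libraries may not all be from separate animals, and p-values measure the spread between libraries.

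Across the adult classes, Fos was lowest in neurons and highest in vascular and immune cells. In endothelial cells (Endo), Fos lay between 6714 and 10636 CPM in the 12 adult libraries, with a median of 8610. In microglia its range was 4406 to 9063 CPM with a median of 7865, and in oligodendrocyte precursors (OPC) 3552 to 6775 CPM with a median of 4412. Excitatory neurons held between 52.9 and 141 CPM with a median of 72.7, and inhibitory neurons (Inhib) between 59.4 and 459 CPM with a median of 208. No excitatory neuron library reached the lowest library of any non-neuronal class. Mean Fos levels between these extremes were 1975 ± 523 CPM (SD, n = 11) in newly formed oligodendrocytes (NF Oligo), 1741 ± 580 (n = 12) in mature oligodendrocytes (Oligo) and 802 ± 273 (n = 11) in astrocytes (Astro). Neighbours in this order overlapped: Fos was higher in Endo than in microglia in 8 of 12 libraries, and higher in NF Oligo than in Oligo in 10 of 11. Inhibitory neurons were above excitatory neurons of the same library in 12 of 12.

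Each class was compared with the excitatory neurons of the same libraries by an exact two-sided sign-flip permutation test of log2(CPM + 1), with p-values adjusted over all genes tested in the class and no fold threshold. Of 70 combinations of member and class, 64 had a mean of at least 10 CPM in either class and were tested. Of these, 36 were higher and 18 lower than in excitatory neurons, where 29.7% of tests over all genes and classes were called higher and 46.9% lower. In 27 of the 64 tests only 1 of the 2 classes reached 10 CPM, so that the minimum itself favoured a direction, and these are a description. In the other 37 both classes reached it, and 25 were higher and 6 lower, against 25.1% and 46.0% of all genes with both classes at that level. Of members at this level in both classes, 5 of 5 were higher in Endo (35.9% of such genes), 5 of 5 in microglia (16.8%), 5 of 5 in OPC (27.6%) and 4 of 6 in Oligo (24.0%). In NF Oligo 3 were higher and 1 lower of 5 (23.7% and 37.3% of such genes), in astrocytes 2 and 2 of 5 (21.1% and 56.1%), and in inhibitory neurons 1 and 3 of 6 (25.6% and 27.1%). The number of libraries limits these p-values to no less than 0.000488 with 12 libraries and 0.000977 with 11.

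Fos exceeded its excitatory level 112-fold in Endo, 90.2-fold in microglia and 63.0-fold in OPC. It was 24.6-fold higher in NF Oligo, 21.4-fold in Oligo, 9.96-fold in astrocytes and 2.81-fold in inhibitory neurons, the last with an adjusted p of 0.00168 (exact permutation, n = 12). Its AP-1 partners followed the same contrast in the vascular and immune classes. Jun stood at 1340 ± 162 CPM in Endo and 929 ± 283 in microglia, against 24.3 ± 4.13 in Exc and 19.2 ± 14.9 in Inhib (SD, n = 12). Junb stood at 1958 ± 927 CPM in microglia and 1579 ± 1015 in Endo, against 60.7 ± 31.9 in Exc. Fosb stood at 598 ± 116 CPM in Endo, 372 ± 136 in microglia and 7.75 ± 1.18 in Exc. Fosl2, a Fos-related subunit, was at 36.5 ± 7.80 CPM in Endo, 15.4 ± 9.21 in microglia and 8.40 ± 1.63 in Exc, and at or below a mean of 1.64 CPM in the astrocyte and oligodendrocyte classes.

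**Figure D1:**
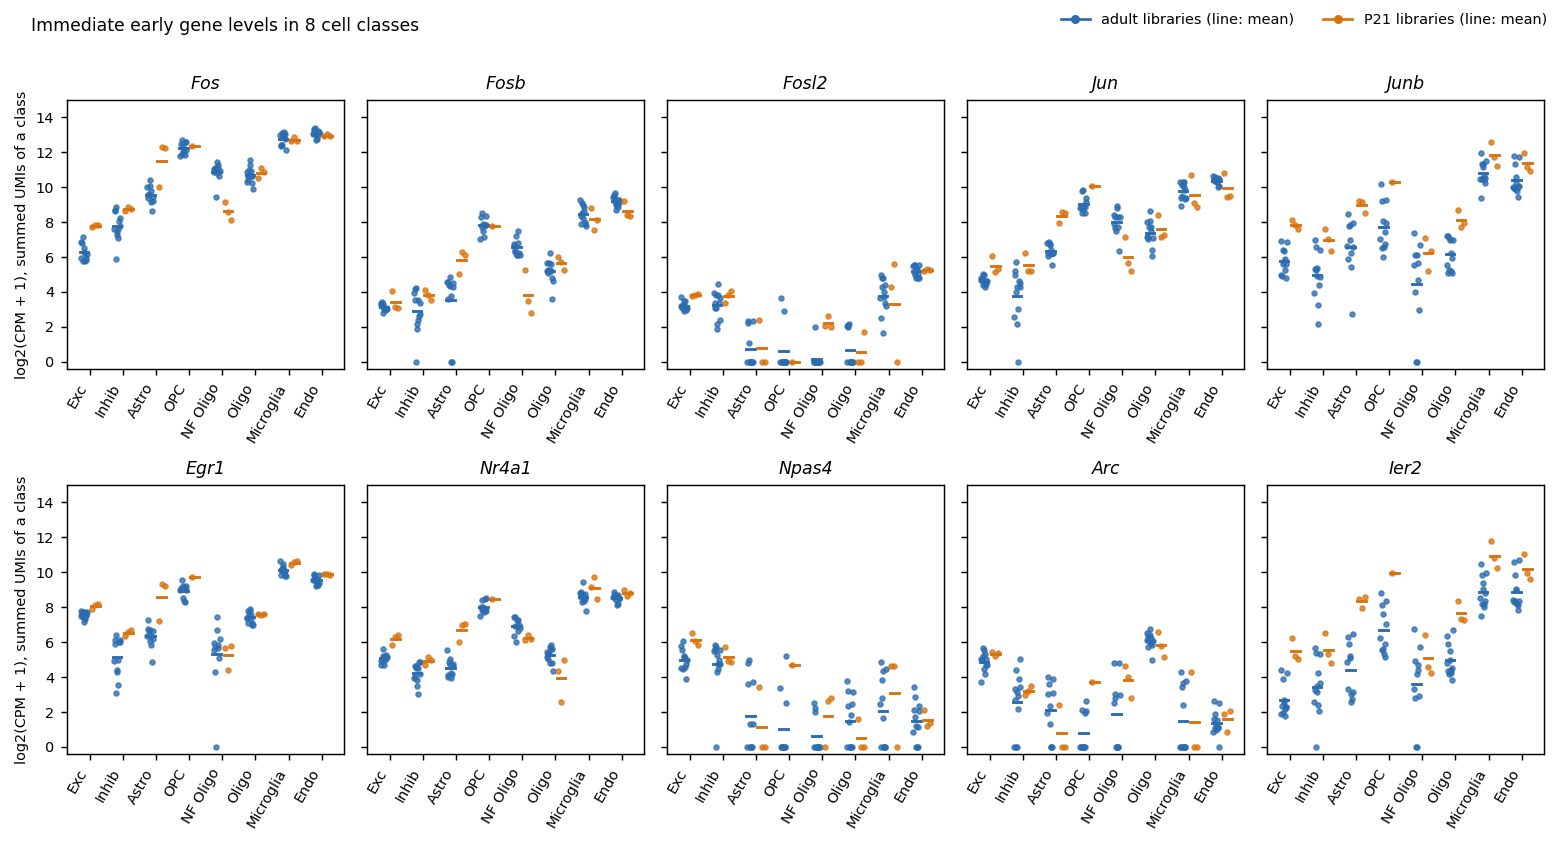
Level of each member in the 8 classes, with 1 point per adult library and per P21 library and a line at each mean, on a log2(CPM + 1) axis. Adult Fos spans from 52.9 CPM in the lowest excitatory library to 10636 CPM in the highest endothelial library, whereas Arc and Npas4 are not highest in the vascular and immune classes.

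Egr1 was not lowest in excitatory neurons, unlike Fos. It held between 140 and 217 CPM in the excitatory neurons of every adult library, with a median of 195, and was 5.34-fold lower in inhibitory neurons (adjusted p = 0.00168, exact permutation, lower in 12 of 12 libraries). Its excitatory level was near that of mature oligodendrocytes (174 ± 38.7 CPM), which was the lower of the pair in 8 of 12 libraries (adjusted p = 0.250, exact permutation). Astrocytes were 2.42-fold and NF Oligo 4.90-fold below excitatory neurons, while microglia were at 1134 ± 210 CPM and Endo at 762 ± 127. The NF Oligo fold includes library 2, with 0 UMIs in 11 cells, and the means were 60.4 CPM in NF Oligo and 190 in Exc. Nr4a1 was at 400 ± 114 CPM in microglia and 377 ± 56.5 in Endo, an order that held in 7 of 12 libraries, and at 33.3 ± 6.23 in Exc. It was also higher than in Exc in OPC (262 ± 63.3 CPM) and NF Oligo (125 ± 35.9), and lower in astrocytes (23.6 ± 9.33) and Inhib (18.8 ± 6.91). In mature oligodendrocytes Nr4a1 was at 39.2 ± 11.3 CPM, above Exc in 7 of 12 libraries (adjusted p = 0.264, exact permutation). Ier2 averaged 607 ± 502 CPM in Endo, 555 ± 373 in microglia and 7.13 ± 6.30 in Exc, and the spread between libraries was wide in each.

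Mean Npas4 was higher in both neuronal classes than in the other classes. It lay between 13.9 and 65.04 CPM in excitatory neurons with a median of 32.0. In inhibitory neurons it lay between 0 and 55.9 CPM with a median of 34.1. The inhibitory level was above the excitatory one in 6 of 12 libraries (adjusted p = 0.736, exact permutation), and the 0 came from library 2, with 19 inhibitory neurons. In the 6 non-neuronal classes Npas4 averaged between 1.03 and 7.82 CPM, with 3 to 8 adult libraries of each class at 0 UMIs. It reached 10 CPM only in Exc in these 6 comparisons, so no fold is given for them.

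Per UMI of a class, mean Arc was highest in mature oligodendrocytes rather than in neurons. The share of adult cells with any Arc UMI had the other order, 24.9% in excitatory neurons and 19.3% in mature oligodendrocytes. Median depths were 10789 to 15084 and 2360 to 4261 UMIs per cell, so that the order depended on depth. It lay between 30.9 and 105 CPM in the mature oligodendrocytes of the 12 adult libraries, with a median of 66.9, and between 12.0 and 49.0 CPM in excitatory neurons, with a median of 30.9. The oligodendrocyte level was the higher in 12 of 12 libraries, by 2.30-fold (adjusted p = 0.000763, exact permutation). Summed excitatory markers in mature oligodendrocytes reached 66.1 to 830 CPM, compared with 5458 to 7008 CPM in the excitatory neurons themselves. Mean Arc was 8.97 ± 9.29 CPM in Inhib, 1.93 ± 1.58 in Endo and 4.73 ± 6.60 in microglia, with 3, 1 and 7 of 12 libraries at 0 UMIs. Among the 11 mature oligodendrocyte clusters with at least 2 libraries it ranged from 22.8 ± 25.3 CPM in Oligo_11 to 133 ± 36.9 in Oligo_9, the latter in only 2 libraries.

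Within excitatory neurons the members' levels varied over the 26 L2 clusters. Mean adult Npas4 ranged from 4.40 ± 4.86 CPM in Exc_3 (SD, n = 12) to 102 ± 42.4 in Exc_17 (n = 9), the lower from 19 UMIs in all. Exc_17 also had the highest cluster mean of Fos (196 ± 81.0 CPM), Arc (65.02 ± 27.4) and Junb (99.99 ± 84.3). The lowest means were 31.0 ± 16.5 CPM for Fos in Exc_26, 8.31 ± 5.59 for Arc in Exc_3 and 37.7 ± 32.1 for Junb in Exc_21. Arc in Exc_3 rested on 32 UMIs over 12 libraries. The highest and lowest clusters differed 6.34-fold for Fos and 2.66-fold for Junb. Exc_17 was used in 9 of the 12 adult libraries, so its means rest on fewer libraries than most, and ranks were also read within each library. It ranked first of 20 to 26 clusters in 6 of these 9 libraries for Npas4, in 5 for Fos, in 5 for Arc and in 3 for Junb. The ratio for Junb was within the spread between libraries, since the SD of Junb in Exc_17 was nearly as large as its mean.

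Other members had their highest means elsewhere. Egr1 was highest in Exc_23 (361 ± 92.6 CPM), which ranked first in 10 of 12 libraries, and lowest in Exc_21 (61.7 ± 23.2). Fosl2 was highest in Exc_13 (32.1 ± 12.9 CPM) and lowest in Exc_4 (1.47 ± 1.64, from 12 UMIs over 12 libraries). Exc_13 ranked first for Fosl2 in 7 of 12 libraries. Mean Nr4a1 peaked in Exc_16 (60.5 ± 35.9 CPM), Jun in Exc_12 (39.4 ± 9.14), Ier2 in Exc_8 (13.7 ± 9.94) and Fosb in Exc_13 (13.06 ± 7.88), each first in only 3 or 4 libraries. These clusters were built by the authors from the same transcriptomes, so their differences are described without a test.

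**Figure D2:**
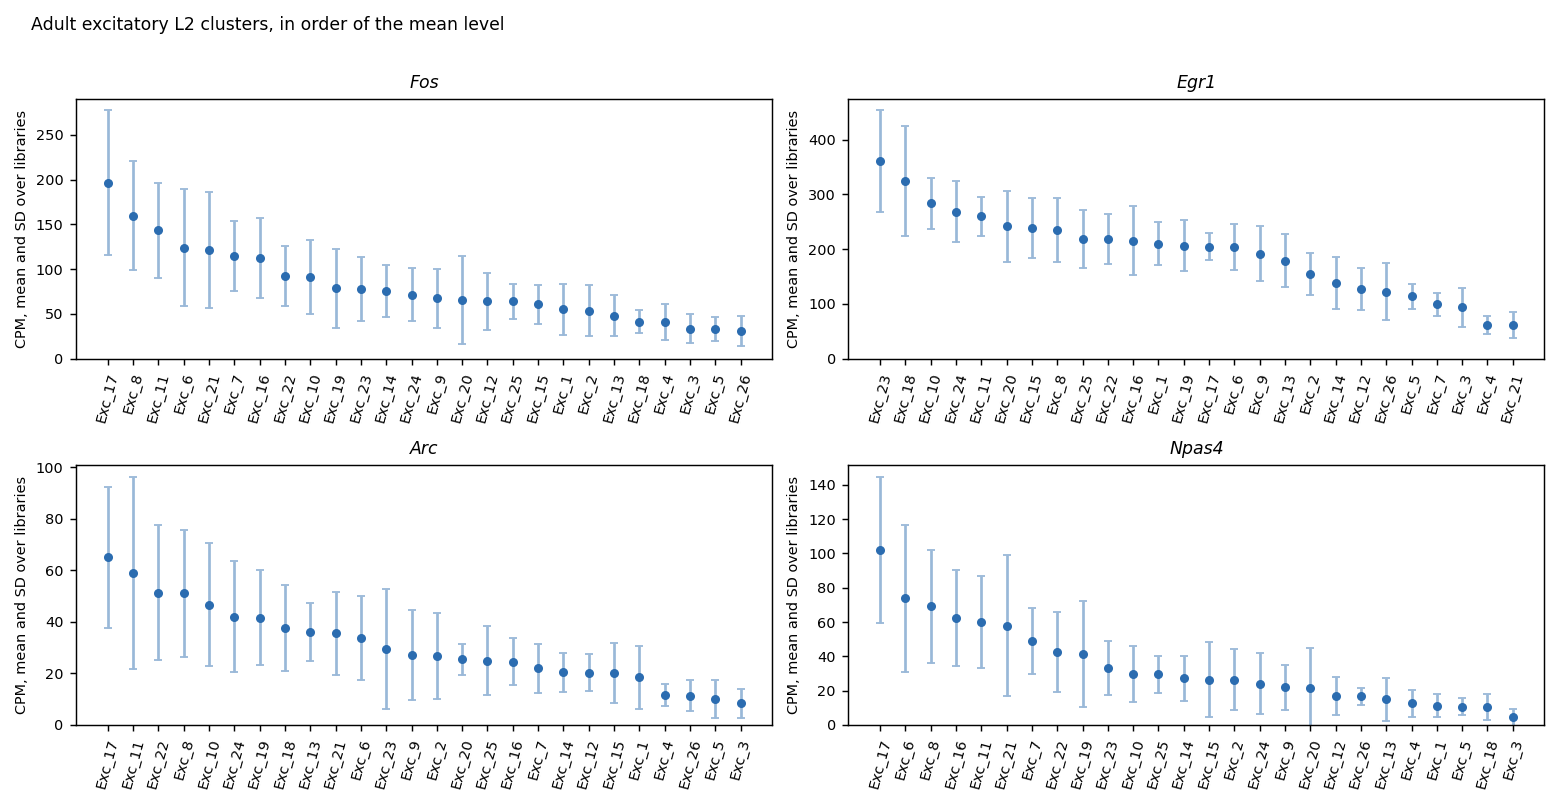
CPM of Fos, Egr1, Arc and Npas4 in the 26 excitatory L2 clusters of adult libraries, with a point at the mean over libraries, a bar of 1 SD and clusters in order of the mean. Npas4, Fos and Arc share their highest mean in Exc_17, while Egr1 is highest in Exc_23.

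In single excitatory neurons the same transcripts met in the same cells more often than their separate shares would give. Each cell was thinned to 2000 UMIs so that depth did not set the shares. Fos was then seen in 12.2% ± 3.87 of adult excitatory neurons (SD, n = 12) and in 97% ± 2.04 of endothelial cells, and Npas4 in 5.83% ± 2.15 against 0.386% ± 0.329. Unthinned, the adult shares in excitatory neurons were 42.4% for Fos and 22.1% for Npas4, at median depths of 10789 to 15084 UMIs. Arc was seen in 5.20% ± 1.83 of thinned adult excitatory neurons, 12.6% ± 4.41 of mature oligodendrocytes and 0.369% ± 0.259 of endothelial cells, the class taken as background for Npas4 and Arc. Fos was seen in every class, the lowest thinned adult share being that of Exc itself, so it has no such background, and the part of free RNA in the Fos shares and in the pairs with Fos was not tested.

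Of 14443 adult excitatory neurons, 121 held both Arc and Npas4 against 47.1 expected from the shares in each library, a ratio of 2.57. The ratio was above 1 in 12 of 12 libraries and was 1.98 when expected within each L2 cluster. Fos and Npas4 met at a ratio of 2.18 (1.70 within clusters), Fos and Arc at 1.73 (1.46) and Fos and Egr1 at 1.19 (1.15). Over the 42 pairs with enough cells, 34 were above 1, with a median of 1.19. At P21, 41 of 44 pairs were above 1 with a median of 1.37. Endothelial cells also had most pairs above 1, 30 of 34 in adults (median 1.08) and 28 of 28 at P21 (median 1.05). An excitatory neuron held 0.770 ± 0.130 different members in adult (n = 12) and 1.51 ± 0.0754 in P21 libraries (n = 3).

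The comparison of ages addresses how the response genes stand in the PFC of adolescent and adult mice. The adult mice had been through food training, catheter surgery and self-administration sessions and the P21 mice had not, and the ages were in separate libraries, so that age, this handling and the set of libraries cannot be told apart. The test sets the 6 adult saline libraries against the 3 P21 libraries by the quasi-likelihood test of edgeR, and calls required more than a 1.5-fold change and p below 0.05 after Benjamini-Hochberg adjustment over all genes tested. In excitatory neurons 6 of 10 members were called, all lower in adults: Fos, Fosl2, Jun, Junb, Nr4a1 and Ier2. Of all 13245 genes tested there, 19.3% were called and 11.1% were called lower in adults. The median change of the members was -0.86 on the log2 scale, against -0.0048 over all genes. For 7 of the 10 members every P21 library was above every adult saline library, which held for 21.3% of all genes. With only the saline libraries of 15 days in the test, 3 members were called in place of 6.

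Fos stood at 210, 231 and 227 CPM in the excitatory neurons of P21 libraries 1, 2 and 3, and between 53.9 and 141 CPM in the adult saline libraries, with a median of 81.5. All P21 libraries were above all adult ones, including those of cocaine mice, and the change was -1.28 ± 0.27 (log2 ± SE, adjusted p = 0.00568, edgeR). Junb was at 279, 224 and 192 CPM at P21, and between 26.9 and 85.1 CPM in adult saline libraries with a median of 50.7, a change of -2.15 ± 0.34 (adjusted p = 0.00152, edgeR). The groups again did not overlap. Ier2 was at 73.5, 35.8 and 31.2 CPM at P21 and between 2.91 and 13.9 CPM in adult saline libraries, where the median was 4.03 and library 12 alone exceeded 5. Its change of -2.92 ± 0.48 was the widest of the members in this class (adjusted p = 0.00210, edgeR).

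Jun and Fosl2 changed less. Jun was at 66.3, 34.4 and 38.6 CPM at P21, and at 18.5 to 32.3 CPM in adult saline libraries, a change of -0.92 ± 0.21 (adjusted p = 0.00636, edgeR). P21 library 1 was well above the other 2, and without it Jun changed by -0.56 and was below the fold threshold. Fosl2 was at 12.7, 12.9 and 13.8 CPM at P21 and at 6.403 to 10.3 CPM in adult saline libraries, a change of -0.68 ± 0.14 (adjusted p = 0.00185, edgeR). With every cell thinned to 2000 UMIs, the Fosl2 change was -0.58 with an adjusted p of 0.0841 (edgeR).

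Nr4a1 was at 56.9, 77.9 and 84.9 CPM at P21 and between 24.6 and 48.6 CPM in adult saline libraries, with no overlap. It had the smallest adjusted p of the members in excitatory neurons (-1.02 ± 0.16, adjusted p = 0.000457, edgeR). Egr1 was at 234, 279 and 295 CPM at P21 and at 140 to 213 CPM in adult saline libraries, also without overlap. Its change of -0.50 ± 0.11 passed the p threshold (adjusted p = 0.00330, edgeR) but not the fold threshold.

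Npas4 was at 90.5, 65.6 and 55.3 CPM at P21 and between 21.5 and 65.04 CPM in adult saline libraries, and the groups overlapped through adult library 12 (-0.80, adjusted p = 0.0660, edgeR). Arc overlapped throughout, at 42.2, 36.1 and 40.3 CPM at P21 and between 21.4 and 49.0 CPM in adult saline libraries (-0.16, adjusted p = 0.499). Fosb was at 15.8, 7.71 and 7.61 CPM at P21 and between 5.82 and 9.84 CPM in adult saline libraries (-0.35, adjusted p = 0.238). Only P21 library 1 stood above the adult range for Fosb.

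**Figure D3:**
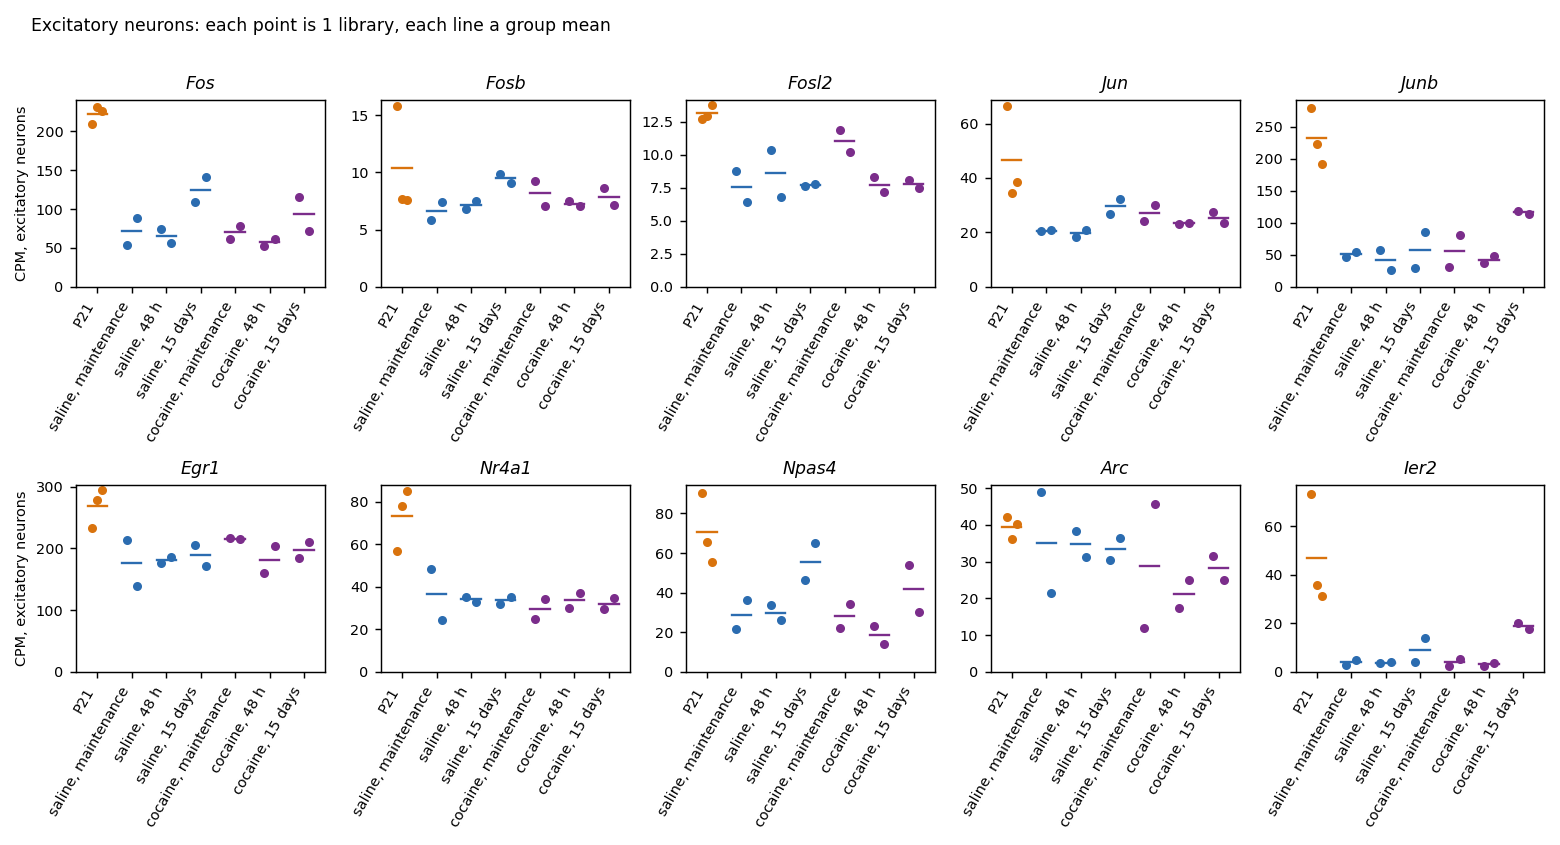
CPM of each member in excitatory neurons by group, with 1 point per library and a bar at the group mean. The P21 points of Fos, Junb, Nr4a1 and Ier2 lie above all adult points, those of Arc lie within the adult range, and libraries 9, 10 and 12 are the highest adult points of Ier2.

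Shares of thinned excitatory neurons with a transcript gave the same order. Fos was seen in 28% ± 2.38 at P21 and 12.2% ± 3.87 in adults, Junb in 31.1% ± 3.80 and 10.7% ± 5.01, and Npas4 in 12.4% ± 2.48 and 5.83% ± 2.15. Unthinned shares were 60.7% and 42.4% for Fos, with P21 cells the shallower (median 6673 to 10411 UMIs). For Arc the thinned shares were 7.51% ± 0.454 and 5.20% ± 1.83, and the unthinned shares 24.0% and 24.9%, so that its order depended on depth. Summed markers of mature oligodendrocytes in excitatory neurons were 265 to 546 CPM at P21 and 46.5 to 149 CPM in adult libraries. Endothelial markers summed to 38.4 to 83.5 CPM at P21 and 7.16 to 29.2 CPM in adult libraries, also without overlap, and microglial markers to 20.5 to 96.9 and 7.73 to 23.7 CPM. Mitochondrial genes held 3.504% to 3.84% of the UMIs in P21 and 2.54% to 3.23% in adult libraries, without overlap. The part of these markers' cells and of RNA quality in the age difference was not tested.

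Members were lower in adults across many excitatory clusters. In 26 clusters, 112 of 196 tests of members were called, and all 112 were lower in adults, against 6.73% of all genes called lower. Over 29 excitatory and inhibitory clusters Junb was called in 25 of 28 tested, Nr4a1 in 20 of 27, Ier2 in 18 of 21, Fos in 17 of 29 and Egr1 in 14 of 28. Jun was called in 9 of 22, Npas4 in 9 of 26, Fosl2 in 2 of 5, Arc in 1 of 22 and Fosb in 0 of 2, the last with an edgeR test that only 2 clusters could enter.

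Npas4 averaged 49.2 ± 9.02 CPM at P21 (n = 3) and 4.40 ± 4.86 in adults (n = 12) in Exc_3, and 121 ± 42.8 and 102 ± 42.4 CPM in Exc_17. These clusters were picked as the lowest and highest in adults, which bears on the size of the change, so these values are a description. Junb in Exc_5 averaged 322 ± 73.0 CPM at P21 (n = 3) and 42.6 ± 11.6 in adult saline libraries (n = 6; -2.95 ± 0.21, adjusted p = 1.71e-13, edgeR). Ier2 in Exc_2 averaged 46.2 ± 23.6 CPM at P21 and 2.16 ± 1.32 in adult saline libraries (adjusted p = 1.08e-08, edgeR), the latter from 5 UMIs in all, so no fold is given. The cluster names of P21 cells were given by resemblance to adult clusters, and the clusters share libraries and are not independent.

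**Figure D4:**
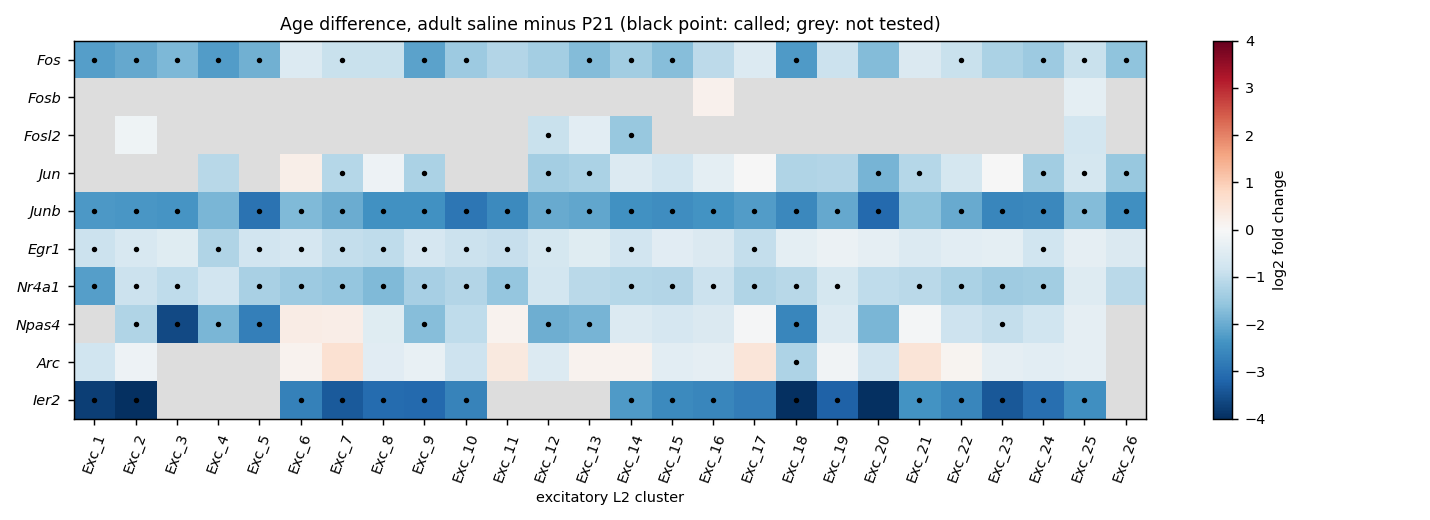
Log2 change of each member (adult saline minus P21) in the 26 excitatory clusters, on a colour scale limited to 4 in either direction, with a black point where the change was called and grey where a gene was not tested. All 112 called changes are negative.

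In inhibitory neurons as a class, 0 of 10 members were called by edgeR, against 14.0% of all genes, and 3 reached an unadjusted p below 0.05, as did 33.0% of all genes. Junb came nearest, at 196, 128 and 79.6 CPM at P21 and between 8.65 and 93.9 CPM in adult saline libraries (-1.68 ± 0.53, adjusted p = 0.0646). Npas4 differed little, at 51.4, 29.0 and 28.7 CPM at P21 and between 0 and 52.0 CPM in adult saline libraries (0.04 ± 0.31). In cluster Inhib_7, the only inhibitory cluster with calls, Fos averaged 713 ± 127 CPM at P21 (n = 3) and 260 ± 55.5 in adult saline libraries (n = 4; -1.41 ± 0.18, adjusted p = 5.01e-05, edgeR). Junb (-3.06) and Ier2 (-3.57) were also lower there, making 3 of 14 tests against 1.35% of all genes. Microglial markers in inhibitory neurons as a class summed to 53.6 to 73.5 CPM at P21 and 0 to 39.0 CPM in adult saline libraries, and their part in these values was not tested.

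In astrocytes 3 of 7 tested members were called, all lower in adults, against 1.11% of all genes. Jun was at 251, 378 and 367 CPM at P21 and between 45.1 and 114 CPM in adult saline libraries (-1.93 ± 0.26, adjusted p = 0.00203, edgeR). Nr4a1 (-2.07 ± 0.36, adjusted p = 0.00873) and Ier2 (-3.60 ± 0.57, adjusted p = 0.0287) were also lower. Fos was not called (-2.20 ± 0.57, adjusted p = 0.148). P21 library 1 lay apart from the other 2, with 1041 CPM in 227 astrocytes, and libraries 2 and 3 held 5125 and 4828 CPM in 42 and 52 astrocytes. The adult saline range of Fos was 400.0 to 1360 CPM. Microglial markers in these P21 astrocytes summed to 861, 0 and 148 CPM. Markers of mature oligodendrocytes in astrocytes summed to 358 to 1545 CPM at P21 and 84.5 to 371 CPM in adult saline libraries, and endothelial markers to 9.69 to 296 and 5.63 to 154 CPM. Their part in the values was not tested.

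Oligodendrocyte classes differed from neurons in the direction of some members. In newly formed oligodendrocytes Fos was at 564, 382 and 275 CPM at P21 and between 703 and 2437 CPM in the 5 adult saline libraries, with no overlap. It was higher in adults by 2.12 ± 0.42 (adjusted p = 0.0469, edgeR), as was Fosb (2.12 ± 0.47, adjusted p = 0.0340), and these were 2 of 6 tested members against 1.94% of all genes. The P21 libraries held 144 to 224 of these cells and the adult saline libraries 11 to 60. The class carried its 5 markers at both ages (3354 to 4006 CPM at P21, 3984 to 5100 in adult saline libraries), whereas markers of mature oligodendrocytes summed to 45717 to 49579 CPM at P21 and 23952 to 38288 CPM in adult saline libraries. The part of this maturity difference in the Fos result was not tested.

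In mature oligodendrocytes 3 of 8 tested members were called, against 17.8% of all genes. Ier2 was at 333, 159 and 154 CPM at P21 and between 17.2 and 57.5 CPM in adult saline libraries (-3.10 ± 0.38, adjusted p = 0.000255, edgeR). Junb was lower in adults as well (-2.27 ± 0.53, adjusted p = 0.0202). Nr4a1 was higher, at 27.6 to 55.2 CPM in adult saline libraries and 19.5, 4.98 and 30.3 CPM at P21 (1.00 ± 0.34, adjusted p = 0.0450, edgeR), with overlapping groups. Leaving out single libraries ended the Nr4a1 call in 7 cases, and DESeq2 did not call it. Arc differed by -0.08 ± 0.27 in this class. Markers of microglia and endothelial cells, both high in Ier2 and Junb, were also read in mature oligodendrocytes. Microglial markers summed to 76.9 to 265 CPM at P21 and 7.51 to 40.8 CPM in adult saline libraries, and endothelial markers to 52.0 to 238 and 0 to 55.8 CPM, the latter with a narrow overlap. Markers of mature oligodendrocytes themselves summed to 83176 to 111670 CPM at P21 and 50649 to 65453 CPM in adult saline libraries, without overlap. OPC markers summed to 430 to 471 and 171 to 386 CPM, and NF Oligo markers to 256 to 305 and 105 to 203 CPM. The part of these marker differences in the Ier2 and Junb values was not tested.

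In microglia 0 of 7 and in endothelial cells 0 of 8 tested members were called by edgeR, against 0.726% and 12.7% of all genes. At an unadjusted p below 0.05 there were 2 in microglia and 4 in Endo, against 11.4% and 29.4% of all genes. Ier2 in microglia was at 3508, 1805 and 1222 CPM at P21 and between 180 and 923 CPM in adult saline libraries, without overlap (-2.36 ± 0.49, adjusted p = 0.0706), and P21 libraries 2 and 3 held only 21 and 12 microglia. Astrocyte markers in microglia summed to 516 to 1813 CPM at P21 and 220 to 468 CPM in adult saline libraries. Mature oligodendrocyte markers summed to 394 to 2637 and 89.1 to 359 CPM, and OPC and NF Oligo markers were also higher at P21 without overlap. Their part in the Ier2 values was not tested. Fos in Endo was at 7703, 8339 and 7780 CPM at P21, within the adult saline range of 6875 to 10636 CPM. OPC could not be tested because 1 P21 library held at least 10 of them. Over the 7 classes, 14 of 56 tests of members were called, against 11.9% of all tests, and 32 had an unadjusted p below 0.05, which 31.1% of all tests reached. Without P21 library 2 the count was 9.

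Other genes of the activity response were read as lists. Of 31 other rapid response genes, 27 were tested in excitatory neurons by age, of which 17 were lower and 1 higher in adults, with a median of -0.99. Of all genes tested there, 11.1% were lower and 19.3% called in either direction. Egr2, an Egr1 relative, was at 5.58 CPM or more in every P21 library and at 1.26 to 2.24 CPM in adult saline libraries (-2.52 ± 0.27, adjusted p = 3.75e-05, edgeR). Klf4, a zinc-finger factor, was at 7.76 to 8.48 CPM at P21 and 1.12 to 3.79 CPM in adult saline libraries (-1.75 ± 0.28, adjusted p = 0.000555). Among 22 tested later response genes 2 were lower and 3 higher, with a median of 0.16, a count near the 19.3% of all genes. Rheb, a GTPase that activates mTORC1, was lower in adults (-1.13), while Pcsk1, a prohormone convertase, was higher (0.78).

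Of 29 tested upstream regulators 1 was higher and 1 lower, with a median of -0.12, where 19.3% of all genes were called. The lower one was Srf, which encodes serum response factor, at 17.4 to 18.6 CPM at P21 and 7.97 to 13 CPM in adult saline libraries (-0.69 ± 0.11, adjusted p = 0.000478, edgeR). Heat shock genes, which respond to cell stress, had 2 higher and 0 lower of 12 tested, also near that share. Their 14 listed genes summed to 10881 to 13201 CPM in the excitatory neurons of adult and to 9858 to 10314 CPM in those of P21 libraries. Hspa1a was at 10.8 to 14.1 CPM at P21 and 28 to 74.9 CPM in adult saline libraries, a direction opposite to that of the 6 called members. The part of cell stress in the age difference was not tested.

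Cocaine was compared with saline at each time in a fit of all 12 adult libraries. At the end of maintenance, 0 of 43 tests of members in 5 classes were called by edgeR, against 0.0115% of all tests, and 2 had an unadjusted p below 0.05 (4.65%, against 4.74% of all tests). At 48 h, 0 of 65 tests in 8 classes were called, against 0.00827%, and 7 had an unadjusted p below 0.05 (10.8%, against 4.53%). At 15 days, 0 of 65 were called, against 0.339%, and 9 had an unadjusted p below 0.05 (13.8%, against 5.38%), with 0.112 as the smallest adjusted p. Over the 3 times, 0 of 43 were called, against 0.00689%, and for the difference of the cocaine effect between times 0 of 43, against 0.0138%, with 0 and 4 at an unadjusted p below 0.05, against 6.27% and 4.56% of all tests. DESeq2 called 0 of the cocaine tests at each time and over the times.

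At 48 h, Npas4 in excitatory neurons was at 23.0 and 13.9 CPM in the cocaine libraries and 33.6 and 26.1 CPM in the saline libraries, without overlap (-0.73 ± 0.44, adjusted p = 0.980, edgeR). Arc was at 17.4 and 25.0 CPM with cocaine and 38.3 and 31.3 CPM with saline, also without overlap (-0.71 ± 0.58, adjusted p = 0.987). Without the filter on low counts, both were called at similar changes (-0.71, adjusted p = 0.00442, and -0.70, adjusted p = 0.00474, edgeR). The library values were the same in both fits, so these p-values follow the genes kept in the fit and are a description. At maintenance, Fos in excitatory neurons was at 61.6 and 78.7 CPM with cocaine and 53.9 and 89.0 CPM with saline.

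At 15 days, Junb in excitatory neurons was at 114 and 118 CPM with cocaine and 29.4 and 85.1 CPM with saline (1.07 ± 0.60, adjusted p = 1.00, edgeR). Ier2 was at 17.6 and 20.2 CPM with cocaine and 4.12 and 13.9 CPM with saline (1.16 ± 0.48, adjusted p = 0.658). Without the filter on low counts, both were called at similar changes (1.08, adjusted p = 5.98e-14, and 1.17, adjusted p = 1.23e-09, edgeR). The library values were the same in both fits, so these p-values follow the genes kept in the fit. They do not measure the spread between these libraries and are a description. In CPM, the 2 saline libraries of this time differed from each other more than library 12 differed from the cocaine libraries. Without library 12, log2 changes with cocaine were 2.20 to 3.21 for Ier2 and 1.41 to 3.00 for Junb in the classes where they passed. The share of all genes that passed in that fit was not counted. That fit rests on library 11 as the only saline library of the time, whose spread is assumed to be like that of the other groups. Fos was at 71.6 and 116 CPM with cocaine and 109 and 141 CPM with saline (-0.37 ± 0.31).

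Excitatory clusters at 15 days gave 10 calls of 191 tests, against 1.24% of all tests. Junb was higher with cocaine in 7 clusters, from 1.11 in Exc_6 to 2.00 in Exc_5 (adjusted p = 1.80e-06, edgeR). Ier2 was higher in Exc_8 (1.94) and Exc_10 (1.70), and Fos was lower in Exc_14 (-0.92 ± 0.21, adjusted p = 0.0139). Without library 11 there were 4 calls in these clusters, and none (0) of the 10 was among them. Without library 9 there were 4 calls, of which 3 were among the 10, and without library 10 there were 12, of which 4 were. Without library 12 these calls remained, and Junb changes in the clusters where it passed ran from 1.35 in Exc_12 to 2.59 in Exc_17. Each of these fits left 1 library in a group, and the share of all genes called in them was not counted. The difference of the cocaine effect between the 3 times had no fold threshold. It was called in 2 of 102 tests of members in excitatory clusters, both of Junb (Exc_3 and Exc_5), against 0.0373% of all tests.

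Members were called between maintenance and 15 days in microglia and mature oligodendrocytes. The test of time averaged cocaine and saline, but each time was a separate harvest, so that withdrawal time and harvest cannot be told apart. In microglia 5 of 7 tested members were lower at 15 days than at maintenance, against 15.9% of all genes called. Fos was at 8268, 8870, 7809 and 7922 CPM in libraries 1 to 4 and at 4406, 5375, 5311 and 5548 CPM in libraries 9 to 12 (-0.88 ± 0.12, adjusted p = 7.73e-05, edgeR). Jun (-1.13, adjusted p = 0.000177), Fosb (-1.02, adjusted p = 0.026), Nr4a1 (-0.74, adjusted p = 0.0217) and Egr1 (-0.60, adjusted p = 0.00572) were lower too. In cells thinned to 2000 UMIs, Fosb, Nr4a1 and Egr1 no longer passed, and 5 calls were left over all classes.

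In mature oligodendrocytes 3 of 8 tested members were called, against 10.1% of all genes. Fos was at 1852, 2020, 3055 and 2450 CPM at maintenance and at 951, 1275, 1614 and 1353 CPM at 15 days, without overlap (-0.95 ± 0.14, adjusted p = 0.000115, edgeR). Jun was lower (-1.06, adjusted p = 0.0477) and Ier2 higher (1.01, adjusted p = 0.0319). Jun lost the call without any 1 of 6 single libraries. In Exc, Inhib and Endo 0 members were called, against 1.97%, 1.99% and 10.2% of all genes, although Fos and Egr1 in Endo passed the p threshold at changes of 0.30 and 0.35. At 48 h against maintenance 0 of 43 tests were called by edgeR, against 0.344% of all tests, with 8 at an unadjusted p below 0.05 (18.6%, against 8.12%). In excitatory clusters 3 of 109 tests were called between maintenance and 15 days, against 1.14% of all tests. Npas4 (adjusted p = 0.00233) and Egr1 (0.98, adjusted p = 0.0163) were higher at 15 days in Exc_21, and Jun was lower in Exc_4 (-1.06, adjusted p = 0.0127, edgeR). Between maintenance and 48 h 1 of 102 was called, Fos in Exc_5 (-1.37, adjusted p = 0.0412, edgeR), against 0.0863%. Microglial and oligodendrocyte Fos thus fell at 15 days while endothelial Fos differed in the other direction by less than the fold threshold.

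Among adult libraries, Ier2 and Junb varied together beyond their groups. The 3 highest libraries of Ier2 were 9, 10 and 12 in all 8 classes. In Endo they held 1651, 1552 and 936 CPM, and the other 9 libraries 230 to 525 CPM. In microglia they held 992, 1407 and 923 CPM, and the others 180 to 657 CPM. The same 3 libraries were highest for Junb in 4 of 8 classes and for Npas4 in 2, and for no other member in any class. The 2 classes of Npas4 were mature oligodendrocytes and Endo, with at most 8 and 15 of its UMIs per library. In Exc and Inhib the 3 highest libraries of Npas4 were 10, 11 and 12. Library 11, of the same group as library 12, held 315 CPM of Ier2 in Endo and 180 CPM in microglia.

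**Figure D5:**
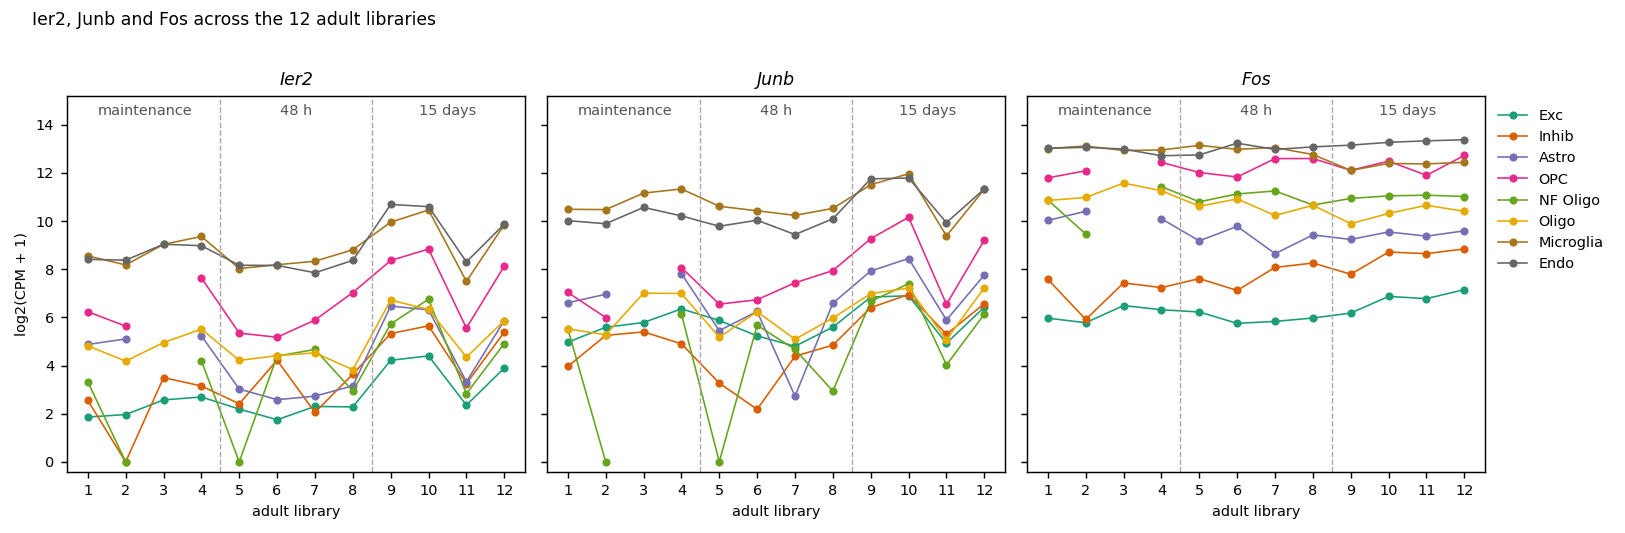
Log2(CPM + 1) of Ier2, Junb and Fos in the 12 adult libraries, with 1 line per class that joins points only to mark the class. Libraries 9, 10 and 12 form the highest points of Ier2 in all 8 classes, while Fos in microglia is lower in libraries 9 to 12 than in libraries 1 to 8.

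Across the 12 adult libraries, Fos and Npas4 in excitatory neurons rose and fell together. Pearson's r of log2(CPM + 1) was 0.90 and Spearman's rho 0.895, and r was 0.79 without libraries 10 and 12, the farthest from the median of Fos. Of 8053 other genes, 2 had an r with Fos at least as high. As deviations from the means of the 6 groups, r was 0.78. Fos and Ier2 had an r of 0.67 that dropped to 0.33 without the same 2 libraries, and Fos and Egr1 an r of -0.23 (-0.09 without them). Deviations from group means gave r of 0.64 for Fos and Ier2 (0.60 without libraries 2 and 3, the farthest on that scale) and of -0.67 for Fos and Egr1 (-0.41 without them). The libraries differ in depth and, between times, in harvest, and the values describe these 12 libraries.

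Genes were ranked by the likeness of their pattern to the mean of the members. Over 82 L2 clusters of all classes and 9381 genes, the closest were Dusp1 (r = 0.94), which encodes a MAP kinase phosphatase, Mcl1 (0.94), H2-D1 (0.93), Atf3 (0.93), which encodes a stress-induced bZIP factor, and Klf6 (0.93). Among the members themselves, Junb, Ier2 and Fosb had r of 0.94 to 0.95 with that mean, whereas Arc (-0.47) and Npas4 (-0.43) ran against it. Over the 12 adult libraries in excitatory neurons the closest were Osgep (0.90), Hspa1a (0.90), Dazap1 (0.89), Lmna (0.88) and Tspyl1 (0.88).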

How the data were processed

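Single cells were captured in droplets (10x Chromium), and the authors used Cell Ranger (version 13.1 in the submitters' notes, another version in the methods) to align reads to mm9 (NCBIM37) and to count UMIs. The counts were deposited without normalization, beside a table of each retained cell's class and cluster that the authors made with Seurat 2.1.0. Adult clusters served the authors to name P21 cells.

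Leaving out 13 mitochondrial genes and 143 ribosomal protein genes, UMIs were summed per library and class or cluster (the class of its cluster) where at least 10 cells were present. Groups of at least 2 libraries were compared with edgeR 4.0.16 (R 4.3.3) by robust quasi-likelihood tests over all genes after filterByExpr and TMM scaling. Calls required over 1.5-fold change and p below 0.05 after Benjamini-Hochberg adjustment. The difference of the cocaine effect between times was an F test without a single fold change, and was called by adjusted p alone. Class levels were tested by exact sign-flip permutation, adjusted over all genes tested in a class. This replaced an adjustment over the members alone that had been planned. Shares of cells used cells thinned to 2000 UMIs (seed 1), without shallower cells. Doublets were removed by the authors and not sought again. Python 3.11.15 (numpy 2.4.6, pandas 2.3.3, scipy 1.17.1) read the counts. The edgeR fits for age and for cocaine at 15 days were tested on counts simulated for excitatory neurons and endothelial cells. Counts of cells and UMIs limit precision by counting error only.

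The members and gene lists were chosen with earlier results of these data known. Named genes outside the members were, per list, up to 3 genes with the widest changes among those called in excitatory neurons, and the 5 genes most like the members' mean. Alternatives were DESeq2 1.42.0, RLE size factors, no low-count filter, no fold threshold, 30 cells, thinning, other adult libraries, the authors' class and leaving out each library. For age, P21 libraries 2 and 3 were also summed into 1, and the count of calls in that fit is not given here.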

Additional observations from a re-analysis of the deposited data

Results flagged for a closer look

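Among 69 combinations of a member and a class in the 5 or 6 adult saline libraries, 8 had 1 library far from the others. The rule was Dixon's ratio of CPM, the gap to the nearest library over the whole range. It had to exceed 0.625 with 6 libraries and 0.71 with 5. The combinations share the same libraries and CPM was not put on a log scale, so the share expected by chance is not known. Library 12 (saline, 15 days) was the high one in 6 of them. Its Ier2 was at 13.9 CPM in excitatory neurons against 2.91 to 4.95 in the others, at 41 CPM in inhibitory neurons against 0 to 10.3, at 279 CPM in OPC against 39.7 to 58.4, and at 57.5 CPM in mature oligodendrocytes against 17.2 to 30.03. In OPC its Junb was at 592 CPM against 62.7 to 172, and its Jun at 865 CPM against 369 to 497. Library 3 (saline, maintenance) was apart for Nr4a1, low in inhibitory neurons at 10.3 CPM against 21.6 to 28.3, and high in microglia at 689 CPM against 312 to 435. The low value rested on 3 UMIs in 28 inhibitory neurons, and that of library 2 on 3 UMIs in 19.

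The age difference ran in opposite directions in newly formed oligodendrocytes and other classes. On the log2(CPM + 1) scale, the adult minus P21 difference in newly formed oligodendrocytes exceeded that in excitatory neurons by 3.56 for Fos and by 3.02 for Jun, and that in astrocytes by 6.01 for Fosb and by 4.20 for Jun. These pairs of classes were picked because their 5 adult saline and 3 P21 libraries did not overlap and stood in opposite order. The difference was not tested. Fosb was seen in 0% of the astrocytes of the lowest adult library. A level of 0 makes the 6.01 for Fosb depend on the 1 added to CPM, so its size is a description. The cocaine effect on Junb differed between the 3 times in Exc_3 (adjusted p = 0.0332, edgeR) and Exc_5 (adjusted p = 0.0406, edgeR), which were 2 of 102 tests of members in excitatory clusters, against 0.0373% of all tests.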

How the results depend on the processing

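No paired analysis was possible because replicate numbers were given in accession order and the labels carry none that pair libraries. For age over all classes the count of 14 was 8 with only the saline libraries of maintenance, 6 with only those of 15 days, and 23 with the authors' class in place of that of the cluster (chosen after seeing the data), and 9 to 19 when single libraries were left out, the lowest without P21 library 2. The authors' class and that of the cluster differed in 459 of 10538 P21 cells and in 33 of 24822 adult cells. The part of these cells in the age results was not tested. In excitatory neurons the count of 6 was 3 with only the saline libraries of 15 days and 6 to 7 without single libraries. For cocaine, dropping the low-count filter gave 2 calls at 48 h, 4 at 15 days and 2 over the times and between them, in place of 0. The library values were the same with and without the filter, so these calls follow the genes kept in the fit. Leaving out single libraries gave 0 to 11 calls at 15 days (11 without library 12, and 1 each without libraries 1 and 4) and 0 to 4 over the times and between them (4 without library 12). Calls at 15 days in excitatory and inhibitory clusters, 10 in all, ranged from 4 to 36. For 15 days and 48 h against maintenance, the count of 8 was 20 without the filter, 5 after thinning (chosen after seeing the data) and 4 to 12 without single libraries, with 4 without library 1 and 4 without library 9. The class comparison gave 25 calls in place of 54 with saline libraries alone, where 5 libraries allow no p below 0.0625, and 53 to 56 without single libraries. No member called for age, or between maintenance and 15 days, changed direction in its class under an alternative, and no call of the class comparison was reversed. The cocaine effects were not checked for direction. For single members, 365 values kept their call and direction, and 78 kept the direction but lost the call.
With 2 libraries per adult group and 3 at P21, the spread between libraries limits every comparison of groups, and low members such as Fosb and Fosl2 entered few cluster tests. Classes with few cells (newly formed oligodendrocytes of adults, microglia and astrocytes of P21 libraries 2 and 3) rest on few UMIs. The share of all genes called in the alternative fits was not counted, and the cause of the changes under each alternative was not tested.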

Other observations

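Many other genes shared the library pattern of Ier2. Of 8054 genes in excitatory neurons, 198 had an r above 0.9 with Ier2 over the 12 adult libraries, and 79 with Junb. The closest to Ier2, named after the values were seen, were Mrps15 (r = 0.98), which encodes a mitochondrial ribosomal protein, Tspyl2 (0.98) and Alg1 (0.98), a mannosyltransferase of protein glycosylation. Mrps15 was at 99.6 to 131 CPM in libraries 9, 10 and 12, at 48.1 CPM in library 11 and at 91.6 to 114 CPM in the P21 libraries. Alg1 was at 35.4 to 39.1 CPM in libraries 9, 10 and 12 and at 22.8 CPM in library 11. Dusp1, the gene nearest to the members over clusters, was at 18.8 to 25.1 CPM in libraries 9, 10 and 12 and at 22.6 CPM in library 11.

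Heat shock genes were called by age in 5 of 7 classes. Beside the excitatory neurons, 2 of 11 tested were higher in adults in newly formed oligodendrocytes (1.94% of all genes called), 3 of 11 in mature oligodendrocytes (17.8%) and 1 of 11 in inhibitory neurons (14.0%). In endothelial cells 2 were higher and 1 lower of 14 (12.7%), and in astrocytes and microglia 0 of 11 each were called by edgeR (1.11% and 0.726%), with 2 and 1 at an unadjusted p below 0.05.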
